A study of Mus musculus with 24 samples.

Results

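7 miRNAs linked to blood vessels and blood were followed in exosome-enriched fractions (EEFs) from mouse hippocampus. They were mmu-mir-126a-3p and mmu-mir-126a-5p, mmu-mir-143-3p and mmu-mir-143-5p, mmu-mir-145a-5p and mmu-mir-145a-3p, and mmu-mir-451a, chosen by name as 7 of the 1073 mature miRNAs with a read in the 24 small RNA libraries. A name missing from a library's count table was taken as 0 reads. All 7 had at least 1 read in the series.

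The EEFs came from male C57BL/6 mice (substrain C57BL/6OlaHsd in the study's methods) of 6 to 9 weeks given 0.3 μg kainic acid (KA) in 0.2 μl into the right basolateral amygdala, which causes status epilepticus, or the same volume of PBS (control). The protocol describes midazolam at 8 mg/kg after 40 min and does not say whether PBS mice also received it. Mice were perfused with PBS to clear blood from the vessels and killed at 24 h or 2 weeks. EEFs were pelleted at 100000 × g (UC), with 5 hippocampi pooled per sample, or precipitated with a polymer kit without that spin, with 4 hippocampi pooled per sample, and both kinds were treated with RNase A before RNA extraction. This gave 8 groups of 3 libraries (UC control 24h, UC KA 24h, UC control 2w, UC KA 2w, and the same 4 for the kit). UC and kit libraries are separate sets of samples, so the preparation method and the set of libraries cannot be told apart.

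miR-126 is carried in an intron of Egfl7, a gene of endothelial cells, and is the best known miRNA of endothelium, where it supports vessel integrity. miR-143 and miR-145 are made from 1 transcript and are typical of smooth muscle, and of the pericytes and fibroblasts around vessels. miR-451a is abundant in red blood cells, is made from the same transcript as miR-144, and is cut by Argonaute2 in place of Dicer, so that the end of the mature miRNA is trimmed after cleavage. In brain tissue these miRNAs are read as signs of vessel wall and of remaining blood.

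The sequences below show what the read counts of these miRNAs rest on. Names of 2 of the 7 members, mmu-mir-126a-3p and mmu-mir-451a, matched a mature sequence in the RefSeq table used here. These are printed with both arms of miR-144, with the seed (bases 2 to 8) in capitals.

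mmu-miR-126a-3p: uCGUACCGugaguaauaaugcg
mmu-miR-451a: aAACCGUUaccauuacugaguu
mmu-miR-144-3p: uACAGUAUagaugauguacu
mmu-miR-144-5p: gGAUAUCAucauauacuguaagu

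None of these 4 seeds is shared with any other of the 1679 mature mouse miRNAs searched, which leave out chromosome 18. In GRCm38, miR-126a-3p lies at chr2:26591402-26591423 on the plus strand. Its hairpin, Mir126a, occupies chr2:26591357-26591429 within annotated Egfl7 sequence that is exonic in at least one transcript, with Mir126b on the opposite strand. miR-451a lies at chr11:78073186-78073207 on the plus strand, in an intergenic hairpin at chr11:78073170-78073241, and Mir451b is annotated on the opposite strand of the same bases. The Mir144 hairpin ends 99 bases before it. The Mir143 and Mir145a hairpins are 1301 bases apart on 1 strand and overlap no other annotated gene.

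The 2 hairpins are shown to place the mature miRNA (capitals) within each. The mature miRNA of Mir451a runs into the loop.

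Mir126a: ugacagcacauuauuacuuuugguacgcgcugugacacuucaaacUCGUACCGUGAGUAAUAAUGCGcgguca
Mir451a: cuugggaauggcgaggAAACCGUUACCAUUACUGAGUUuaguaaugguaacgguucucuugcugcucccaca

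A UC library held 85436 to 169639 reads (median 132335) and a kit library 154884 to 676726 (median 277043). The floor used here, 3 reads, equalled 17.7 to 35.1 CPM (reads of a miRNA per 1000000 reads of all miRNAs in that library) in UC libraries and 4.43 to 19.4 CPM in kit libraries. Replicates differed by far more than counting noise in every one of the 24 within-group pairs (chi-square per degree of freedom 5.12 to 155.7), so no replicate was a copy of another of its group. The 7 miRNAs together took 0.577 to 1.79% of the reads of a UC library and 1.46 to 3.63% of a kit library. A library stood apart in the kit set, KA 2w replicate 2, with the most reads and the highest miR-143-3p. Its effect on the miR-143-3p values is given beside them.

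Nearly all of these reads belonged to miR-143-3p, which made up 96.9% of the members' reads with UC and 87.9% with the kit. It was among the most abundant miRNAs of every library, with a median rank of 13 by both methods (7 to 24 in UC libraries, 6 to 18 in kit libraries). The 2 arms of miR-126a were at similar ranks in UC libraries, a median of 147.5 for 5p and 153 for 3p. In kit libraries miR-126a-5p stood at a median rank of 47 and miR-126a-3p at 97.5. Both arms of miR-145a and miR-451a were near or below the floor in UC libraries, and miR-143-5p had 0 reads with UC and 2 with the kit, which allows no comparison.

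**Figure D1:**
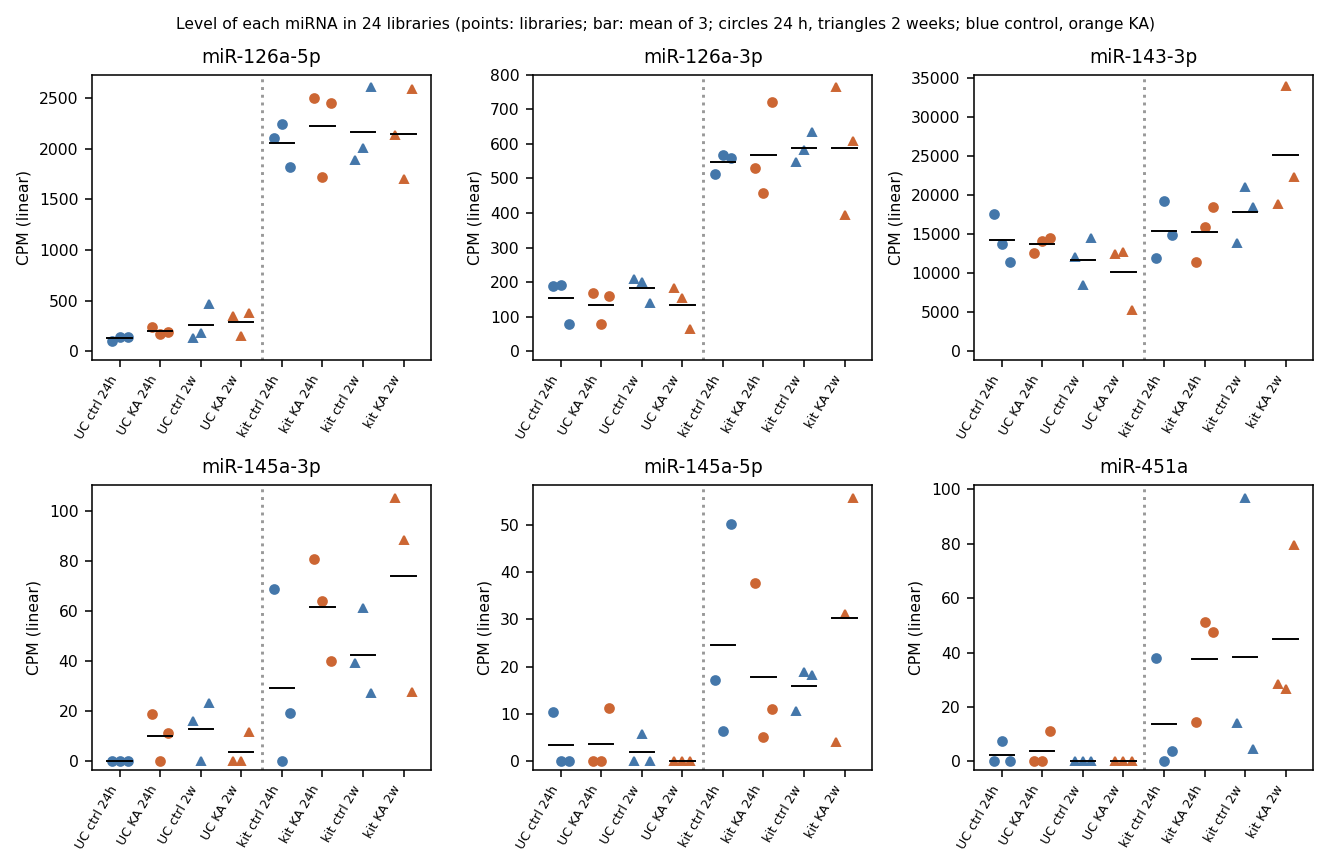
Level of 6 miRNAs in CPM (linear axis) in each library, by group, with UC groups left and kit groups right of the dotted line; points are libraries, bars the mean of 3, blue control, orange KA, circles 24 h and triangles 2 weeks. Both arms of miR-126a separated the 2 methods without overlap, miR-143-3p overlapped between them, and the 3 miRNAs of the lower row were mostly at 0 with UC.

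Kit libraries held far more of both arms of miR-126a, the endothelial miRNA, than UC libraries. The 5p arm was 9.72-fold and the 3p arm 3.71-fold higher, and no kit library was as low as any UC library for either arm. miR-143-3p, the mural cell miRNA, was 1.44-fold higher, with overlapping libraries. In pooled fractions more vesicles from a cell type and more of a miRNA per vesicle cannot be told apart.

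With UC, miR-126a-5p was at 104, 140 and 138 CPM in control 24h, 244, 171 and 192 in KA 24h, 128, 183 and 468 in control 2w, and 351, 153 and 374 in KA 2w (replicates 1 to 3). With the kit it was at 2109, 2247 and 1826 CPM in control 24h, 2501, 1718 and 2458 in KA 24h, 1892, 2005 and 2608 in control 2w, and 2138, 1707 and 2594 in KA 2w. The lowest kit library, KA 2w replicate 2, was thus still more than 3 times above the highest UC library. These levels rested on 10 to 63 reads per UC library and 348 to 1155 per kit library.

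The 3p arm, usually taken as the main product of the hairpin, was lower than the 5p arm in all 12 kit libraries. With UC it was at 188, 191 and 80.1 CPM in control 24h, 169, 77.7 and 159 in KA 24h, 209, 200 and 140 in control 2w, and 184, 153 and 65.3 in KA 2w. With the kit it was at 513, 568 and 560 CPM, 529, 457 and 721, 549, 583 and 634, and 765, 395 and 608 in the same 4 groups. The lowest kit library was at 395 CPM and the highest UC library at 209 CPM, on 10 to 34 reads per UC library and 88 to 267 per kit library.

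miR-143-3p was at 17568, 13791 and 11445 CPM in UC control 24h, 12656, 14140 and 14549 in UC KA 24h, 12062, 8536 and 14479 in UC control 2w, and 12471, 12725 and 5319 in UC KA 2w. In kit libraries it was at 11982, 19292 and 14848 CPM in control 24h, 11464, 15976 and 18473 in KA 24h, 13915, 21090 and 18457 in control 2w, and 18881, 34021 and 22396 in KA 2w. At 24 h the 2 methods covered the same range, and at 2 weeks most kit libraries lay above the UC libraries.

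The difference between methods was tested on the 397 miRNAs with more than 1 CPM in at least 6 of 12 libraries by each method, with treatment and time as covariate. The quasi-likelihood test of edgeR, with p-values adjusted after Benjamini and Hochberg, gave a log2 fold change of 3.28 ± 0.19 (SE) for miR-126a-5p (adjusted p = 1.57e-16), 1.89 ± 0.18 for miR-126a-3p (adjusted p = 5.80e-11) and 0.52 ± 0.17 for miR-143-3p (adjusted p = 0.00588). Such calls were common, since 66.2% of the 397 miRNAs passed and 33.2% passed with a higher level in the kit, against 3 of the 3 members tested. The median log2 fold change was 1.89 over these 3 and -0.02 over all 397.

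The miR-143-3p difference was not called under every scaling or at both times, and its change over time did not pass adjustment. With miR-92b-3p and miR-25-3p, a pair that the study used for reference, as the scale it was -0.02 ± 0.24 on the log2 scale (edgeR, adjusted p = 0.944), while miR-126a-5p and miR-126a-3p stayed at 2.92 and 1.45. That scaling moved the median of all miRNAs from -0.02 to -0.45. In the 24 h libraries miR-143-3p differed by 0.09 ± 0.17 (adjusted p = 0.666) and in the 2 week libraries by 0.89 ± 0.23 (adjusted p = 0.00240). In control libraries alone it differed by 0.31 ± 0.19 (adjusted p = 0.150). The test of the change over time itself gave 0.89 ± 0.29 on the log2 scale (edgeR, unadjusted p = 0.00382, adjusted p = 0.453), while for miR-126a-5p it gave -0.72 ± 0.36 (adjusted p = 0.627).

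**Figure D2:**
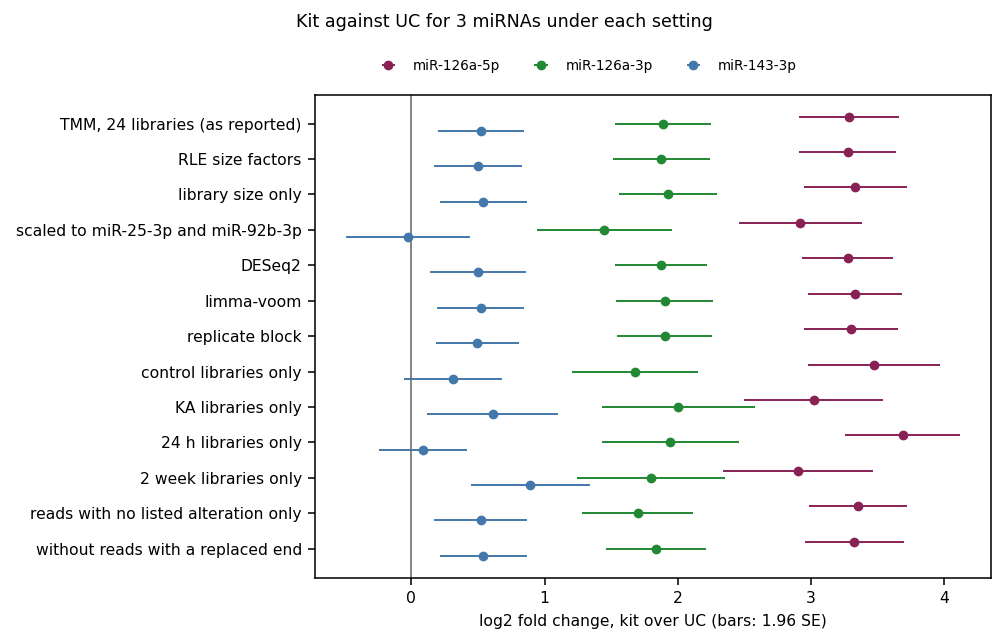
Log2 fold change of kit over UC (x axis) for miR-126a-5p, miR-126a-3p and miR-143-3p under each setting of the test (y axis); points are estimates and bars normal 95% intervals. Both arms of miR-126a lay above 1 under every setting shown, while miR-143-3p lay near 0 after scaling to 2 reference miRNAs and in the 24 h libraries.

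The 4 remaining members were too low in UC libraries for that fit. With UC, miR-145a-3p, a product of the mural cell transcript, had 0, 0 and 0 reads in control 24h, 2, 0 and 1 in KA 24h, 2, 0 and 2 in control 2w, and 0, 0 and 2 in KA 2w. With the kit it had 20, 0 and 5 reads, 28, 25 and 11, 11, 26 and 6, and 26, 60 and 7 in the same groups. Most kit libraries exceeded every UC library, and one, control 24h replicate 2, had none.

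miR-145a-5p, the other arm, had 3 reads in the 12 UC libraries together and 1 to 21 in each kit library. With the kit it had 5, 1 and 13 reads in control 24h, 13, 2 and 3 in KA 24h, 3, 8 and 4 in control 2w, and 1, 21 and 14 in KA 2w. Every kit library held it, but several held fewer than the floor of 3 reads.

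miR-451a, the red cell miRNA, had 2 reads in the UC set, 1 in control 24h and 1 in KA 24h. With the kit it had 11, 0 and 1 reads in control 24h, 5, 20 and 13 in KA 24h, 4, 41 and 1 in control 2w, and 7, 18 and 20 in KA 2w. Its level was thus uneven within every kit group, and it was absent from or at 1 read in 3 of the 12 kit libraries.

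Levels of these miRNAs were compared, by a test chosen after the data were seen, with a two-sided exact permutation test over libraries, with the method labels permuted within treatment and time (160000 arrangements, smallest possible p = 1.25e-05). Since miR-145a and miR-451a passed the filter on low values with the kit alone, the p-values describe these libraries and are not independent support. miR-145a-3p was at 51.9 ± 31.3 CPM (SD, n = 12) with the kit and 6.79 ± 8.92 with UC (exact permutation p = 5e-05, adjusted p = 0.00025 over 5 miRNAs that include both arms of miR-144). miR-145a-5p was at 22.2 ± 17.6 CPM against 2.30 ± 4.35 (exact permutation p = 0.00025, adjusted p = 0.000313). miR-451a was at 33.8 ± 30.6 CPM against 1.56 ± 3.73 (exact permutation p = 0.000175, adjusted p = 0.000313), but 139 of its 141 kit reads carried a replaced 3′ end, described below, and 2 kit reads remained without these.

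Summed over the libraries, the kit held 10.2 times the miR-145a-3p of UC relative to all reads (95% exact interval 5.29 to 22.7), 12.0 times the miR-145a-5p (3.97 to 59.3) and 28.8 times the miR-451a (7.84 to 240). These intervals cover counting error only, and the last 2 rest on 3 and 2 UC reads. For miR-451a the ratio rests on reads with a replaced end. The suffix most frequent on its kit reads, GAGGGAC, was more common in every kit library than in any UC library. Reads of all miRNAs with any replaced end had a median share of 1.59% in kit libraries and 2.99% in UC libraries. These shares ranged from 0.895 to 2.63% and from 0.695 to 3.76%. When miRNAs passing by either method were tested, 543 in all, 6 of the 7 members were called higher in the kit by edgeR, where 33% of all miRNAs were. Of these 6, 3 passed the filter through the kit libraries alone, and their count is no support.

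A ratio of reads within 1 library does not depend on the library total. The 5p arm of miR-126a exceeded the 3p arm in 12 of 12 kit libraries and in 7 of 12 UC libraries. Summed, there were 3.795 reads of 5p per read of 3p with the kit (7928 and 2089 reads) and 1.47 with UC (345 and 234 reads). On the log2 scale, with 0.5 added to each count, the ratio was 1.91 ± 0.21 (SD, n = 12, range 1.48 to 2.24) with the kit and 0.47 ± 0.98 (range -0.82 to 2.47) with UC. The difference of 1.44 had p = 0.00025 by the two-sided exact permutation test within treatment and time.

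UC control 24h libraries had a mean log2 ratio of -0.17 ± 0.83 (SD, n = 3), UC KA 24h 0.63 ± 0.43, UC control 2w 0.29 ± 1.25 and UC KA 2w 1.13 ± 1.25. In the kit groups, in the same order, it was 1.90 ± 0.18, 1.97 ± 0.24, 1.87 ± 0.15 and 1.89 ± 0.36. The UC libraries therefore spread widely and the kit libraries little, at 10 to 63 and at least 88 reads per arm. KA and control libraries had 1.41 ± 0.83 and 0.97 ± 1.16 (SD, n = 12 each), a difference of 0.43 that did not pass the test (exact permutation p = 0.150, two-sided, within method and time). Without the libraries numbered 3 it was 0.60 (exact permutation p = 0.0386).

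**Figure D3:**
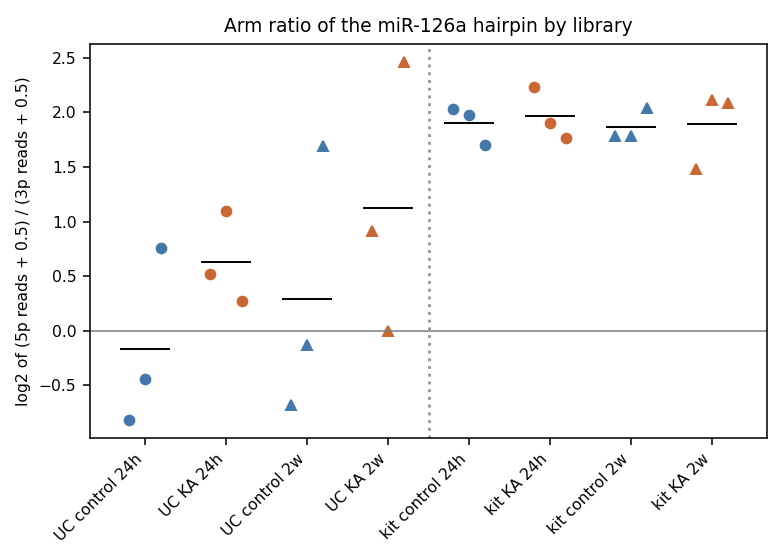
Log2 ratio of 5p to 3p reads of the miR-126a hairpin (y axis, 0.5 added to each count) in each library, by group; points are libraries, bars means of 3, blue control, orange KA, circles 24 h and triangles 2 weeks. Kit libraries lay between 1.48 and 2.24, and UC libraries between -0.82 and 2.47.

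miR-143-3p and miR-145a, though products of 1 transcript, were read in very unequal numbers. There was 1 read of miR-145a, both arms together, per 242 reads of miR-143-3p with the kit (313 and 75766 reads) and per 1556 with UC (12 and 18677 reads). The log2 ratio of miR-145a to miR-143-3p was -8.07 ± 1.07 (SD, n = 12) with the kit and -10.3 ± 1.41 with UC, a difference of 2.27 (exact permutation p = 0.000125). With 1 read added in place of 0.5 it was 1.74, since most UC libraries had 0 to 2 reads of miR-145a. In UC libraries with 0 reads of miR-145a the ratio was set by the added 0.5 and the miR-143-3p count, and so varied with depth. miR-145a passed the filter with the kit alone, so the p-value of this difference describes these libraries and is not independent support. KA changed this ratio by 0.28 (exact permutation p = 0.606).

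The deposited tables also list how each read departed from the mature sequence, and miR-451a differed from all other members in this. Of its 141 kit reads, 1 was listed as unaltered, and 139 (98.6%, 95% exact interval 94.97 to 99.8) carried a replaced 3′ end. A replaced end is here a listed 3′ stretch of at least 5 bases that starts at or before the last mature base. Single bases within it can equal the mature sequence. The mature miRNA is printed again with the bases that the listed end replaced in capitals, from base 16 of 22.

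mmu-miR-451a: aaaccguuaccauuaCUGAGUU

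In 125 of the 141 reads the replacing bases ended in GAGGGAC, as AGAGGGAC in 98 reads and as GAGGGAC in 27. The assignment of the 139 kit reads with a replaced end to miR-451a thus rested on its first 15 bases. These occur in 1 of the 1005 RefSeq mouse hairpins searched, Mir451a, with chromosome 18 left out of the search. Both UC reads were also listed with a replaced end, neither with this suffix, and 1 of them with the replacement listed from the start of the miRNA. The origin of the suffix was not tested.

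The suffix was found on 206 miRNA names, and it took 0.117 to 0.652% of the reads of each kit library and 0.0138 to 0.0528% of each UC library, without overlap. Among the 312 miRNAs with at least 100 reads, miR-451a had the highest share of such reads (87.4% over all libraries) and miR-144-3p the next (29.0%). miR-126a-3p followed at place 12 (8.65%) and miR-126a-5p at place 115 (0.0725%), and miR-143-3p and miR-145a-3p had none. Removing all reads with a replaced end left the miR-126a-3p difference between methods at 1.84 on the log2 scale, from 1.89 (an alternative chosen after the data were seen), while it left 2 kit reads of miR-451a.

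Other members ended differently. miR-143-3p had a single U after its end in 20.7% of 75766 kit reads (95% exact interval 20.4 to 21.0) and in 23.4% of 18677 UC reads (22.8 to 24.1). By library this share was 17.0 to 32.5% with the kit and 17.9 to 28.8% with UC. The intervals of this paragraph are for reads summed over libraries and cover counting error only. miR-126a-5p had a single A after its end in 4.77% of kit reads (4.31 to 5.26) and 8.41% of UC reads (5.70 to 11.8), and 92.3% and 88.1% were unaltered. miR-126a-3p was unaltered in 62.8% of kit reads and 71.8% of UC reads, with replaced ends in 13.4% (11.9 to 14.9) and 7.26% (4.29 to 11.4).

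Over libraries, the share of altered reads passed the exact permutation test between methods for 0 of 3 miRNAs after adjustment. For miR-126a-5p it was 7.87 ± 1.18% (SD, n = 12) with the kit and 12.0 ± 5.42% with UC (exact permutation p = 0.0232, adjusted p = 0.0697), for miR-126a-3p 37.3 ± 5.94% and 29.4 ± 15.3% (adjusted p = 0.180), and for miR-143-3p 32.0 ± 5.42% and 31.8 ± 4.16% (adjusted p = 0.930). KA and control libraries differed by -0.35, -2.30 and -1.80 percentage points in the same order (adjusted p = 0.852 for each).

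**Figure D4:**
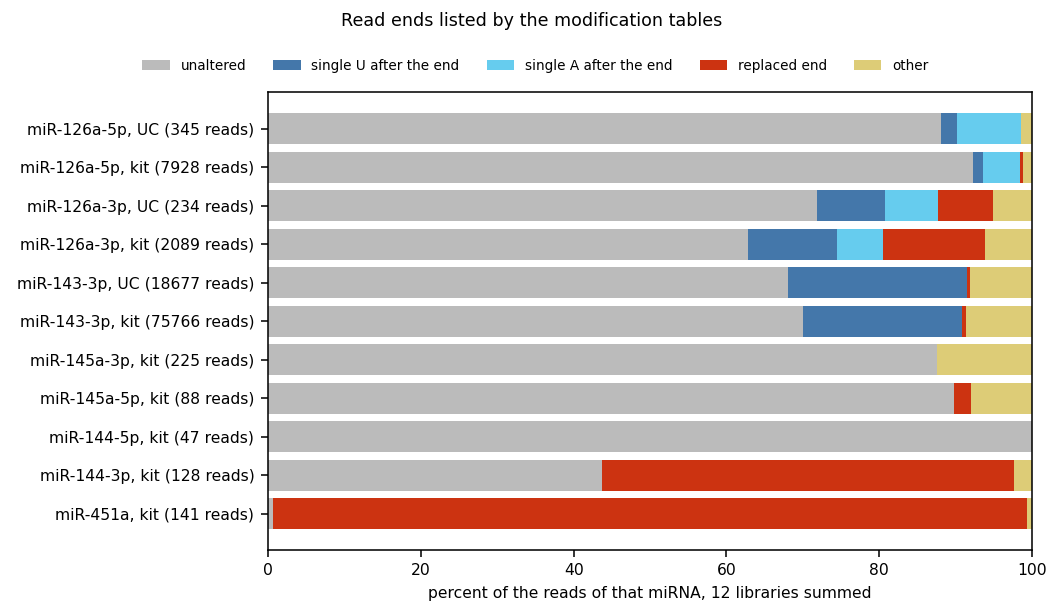
Percent of the reads of each miRNA (x axis, reads summed over 12 libraries) that were unaltered, had a single U or A after the end, had a replaced end, or were altered otherwise, by method. Replaced ends took 98.6% of kit reads of miR-451a and 53.9% of miR-144-3p, and 13.4% of miR-126a-3p.

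The red cell list places miR-451a beside its transcript partner. miR-144-3p had 128 kit reads and 3 UC reads, 17.5 times more relative to all reads with the kit (5.84 to 85.7), and miR-144-5p had 47 and 0, at least 6.41-fold higher against a floor of 3 reads over the UC set. By the permutation test above, miR-144-3p was at 29.5 ± 29.5 CPM with the kit and 2.01 ± 3.76 with UC (exact permutation p = 0.00055, adjusted p = 0.00055). miR-144-3p also passed the filter with the kit alone, so this p-value describes these libraries and is not independent support.

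Across the 12 kit libraries, miR-451a and miR-144-3p moved together. miR-144-3p had 6, 0 and 1 reads in control 24h, 2, 21 and 9 in KA 24h, 4, 37 and 2 in control 2w, and 3, 23 and 20 in KA 2w, high in the same libraries as miR-451a. On the log2(CPM + 1) scale, Pearson's r was 0.95 (permutation p = 3e-05, adjusted p = 0.00018 over 6 relations) and Spearman's rho 0.92 (adjusted p = 0.00042), and r was 0.86 without the 2 libraries farthest from the median of miR-451a and 0.94 after removing group means. Both miRNAs carry the suffix, and of the kit reads of miR-144-3p 53.9% had a replaced end, while all 47 reads of miR-144-5p were unaltered. miR-451a and miR-144-5p had r = 0.42 and rho = 0.49 (permutation, adjusted p = 0.250 and 0.164), and miR-451a and the library's share of suffix reads had r = 0.48 and rho = 0.49 (permutation, adjusted p = 0.226 and 0.164), with r = 0.05 without the 2 farthest libraries.

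The 2 arms of miR-126a had r = 0.62 and rho = 0.64 across kit libraries (permutation, adjusted p = 0.0886 and 0.0830), which fell to r = 0.29 without the 2 farthest libraries. Across UC libraries they had r = -0.25 and rho = -0.43 (permutation, adjusted p = 0.531 and 0.203). miR-143-3p and miR-145a-3p had r = -0.05 and rho = -0.03 across kit libraries (permutation, adjusted p = 0.856 and 0.920), with r = -0.30 without kit KA 2w replicate 2.

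Another miRNA of red cells did not separate the methods in this way. miR-486b-5p, which red cells hold in large amounts and muscle also makes, was at 310 to 1247 CPM with UC and 381 to 1458 with the kit, a log2 fold change of 0.43 ± 0.21 (edgeR, adjusted p = 0.0746). It was called among miRNAs that pass by either method (0.52, adjusted p = 0.0252) and without reads with a replaced end (0.48, adjusted p = 0.0411), and was at 0.031 on the scale of the reference miRNAs (edgeR, adjusted p = 0.921). Its highest kit library, KA 2w replicate 2, was also the highest for miR-143-3p, and its highest UC library, KA 2w replicate 3, was the lowest for miR-143-3p. miR-486b-5p was unaltered in 12.9% of kit reads and 12.4% of UC reads. On unaltered reads alone it was not called (0.52, edgeR, adjusted p = 0.102). It was the 1 of 6 names of that list that could be tested with both methods. Among miRNAs that pass by either method 4 were tested and 3 called higher, where 33% of all 543 miRNAs were. miR-486b-3p was at -0.045 (edgeR, adjusted p = 0.958). Both arms of miR-144 passed the filter through the kit libraries alone, and their calls are no support.

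Among white cell miRNAs 2 of 6 could be tested with both methods, and neither miR-142a-3p at -0.23 nor miR-142a-5p at 0.42 on the log2 scale passed in edgeR, adjusted or unadjusted. When miRNAs that pass by either method were tested, 4 white cell names were included. Of these 1 was called higher in the kit, miR-223-3p (2.39, edgeR, adjusted p = 0.00755), where 33% of all 543 miRNAs were. miR-150-5p, at 1.61, was not called (adjusted p = 0.110). Both passed the filter through the kit libraries alone, so this call is no support. Among 8 names of muscle and connective tissue, the 1 tested, miR-199b-3p, was higher in the kit by 1.97 ± 0.37. This was 0.90 in control libraries (edgeR, adjusted p = 0.114) and 1.102 in 24 h libraries (adjusted p = 0.0585), where the call was lost, and 3.08 in KA libraries. Among miRNAs that pass by either method 3 names of this list were tested and 1 was called higher, again miR-199b-3p. miR-133a-3p at 0.72 and miR-199a-5p at -0.13 were not called (edgeR, adjusted p = 0.357 and 0.886).

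Markers of the other cells of the tissue differed as well, each by its own amount. The oligodendrocyte miRNA miR-219a-2-3p was lower in the kit by -3.08 ± 0.14 on the log2 scale, and 2 of 3 oligodendrocyte miRNAs were called lower, where 131 of all 397 miRNAs were. Of 4 neuronal miRNAs, 3 were called higher, where 132 of 397 were, with miR-218-5p at 1.36, miR-128-3p at 1.06 and miR-9-5p at 0.60, while miR-124-3p was at -0.03 ± 0.15. On the scale of the reference miRNAs miR-9-5p was no longer called (0.16), miR-124-3p was called lower (-0.48), and so was the third oligodendrocyte miRNA, miR-338-3p (-0.70, edgeR, adjusted p = 0.00257). miR-9-5p was also not called in KA libraries (0.38, adjusted p = 0.0706) or 2 week libraries (0.32, adjusted p = 0.150). The choroid plexus miRNA miR-204-5p was higher by 1.07 ± 0.26, by 1.63 in control libraries and by 0.47 in KA libraries, where it was not called (edgeR, adjusted p = 0.307), and miR-448-3p was at 0.44. The part of these cell types in the miR-126a and miR-143 differences was not tested.

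KA left none of these miRNAs called at either time or by either method. Of 18 tests (3 members with UC and 6 with the kit, at 24 h and 2 weeks), 0 passed adjustment in edgeR, DESeq2 or limma-voom, and 0 had an unadjusted p under 0.05 in edgeR. limma-voom gave 1 such value, for miR-145a-3p with the kit at 24 h (unadjusted p = 0.0432, adjusted p = 0.781). Few miRNAs of any kind were called: 0.476% of 420 for UC at 24 h, 0.952% for UC at 2 weeks, and 0% of 520 for the kit at either time, where 24 and 14 miRNAs had an unadjusted p under 0.05. A fit with the replicate block called 2 miRNAs for the kit at 2 weeks, neither of them a member.

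miR-126a-5p with UC was at 127 ± 20.1 CPM (SD, n = 3) in control 24h and 203 ± 37.7 in KA 24h, and all 3 KA libraries lay above all 3 controls. The log2 fold change was 0.56 ± 0.45 (SE) with an adjusted p of 1.00 in edgeR. At 2 weeks it was 260 ± 182 and 293 ± 121 CPM, with overlapping libraries and a change of 0.37 ± 0.41, which ranged from 0.078 to 0.91 as each library was left out. With the kit it was 0.23 ± 0.26 at 24 h and -0.03 ± 0.26 at 2 weeks.

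miR-126a-3p with UC was at 153 ± 63.2 CPM in control 24h and 135 ± 50.03 in KA 24h, and at 183 ± 37.3 and 134 ± 61.6 at 2 weeks. The changes were -0.25 ± 0.46 and -0.45 ± 0.44, and with the kit 0.18 ± 0.31 and -0.03 ± 0.31. Control and KA libraries overlapped in each of these 4 comparisons.

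miR-143-3p with the kit was at 17821 ± 3630 CPM in control 2w and 25100 ± 7924 in KA 2w, a change of 0.51 ± 0.30 (edgeR, adjusted p = 0.998). The highest value, 34021 CPM, belonged to the library that stood apart, and without it the change was 0.13. Leaving out each other library gave up to 0.71. At 24 h it was at 15374 ± 3683 and 15304 ± 3552 CPM, a change of 0.13 ± 0.30. With UC the changes were -0.11 ± 0.27 at 24 h and -0.14 ± 0.27 at 2 weeks, the latter 0.19 without UC KA 2w replicate 3.

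The low members varied most. In kit libraries at 24 h, miR-145a-3p changed by 1.02 ± 0.68, miR-145a-5p by -0.41 ± 0.77 and miR-451a by 1.32 ± 0.93. Leaving out each library moved these to 0.57 to 2.55, -1.58 to 0.53 and 0.83 to 3.92, with the highest value of miR-145a-3p and of miR-451a without kit control 24h replicate 1. At 2 weeks these were 0.76 ± 0.64, 0.88 ± 0.75 and -0.09 ± 0.78. For miR-451a the value at 2 weeks turned to 2.10 without kit control 2w replicate 2, which held 41 of the 46 reads of its group.

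Over both methods, KA changed miR-126a-5p by 0.39 ± 0.26 at 24 h and 0.21 ± 0.24 at 2 weeks, miR-126a-3p by -0.05 ± 0.27 and -0.19 ± 0.26, and miR-143-3p by -0.00093 ± 0.20 and 0.21 ± 0.20. None passed, where 0.756% of 397 miRNAs did at 24 h and 0.504% at 2 weeks. The normal 95% interval of the miR-143-3p change at 24 h ran from -0.40 to 0.40.

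**Figure D5:**
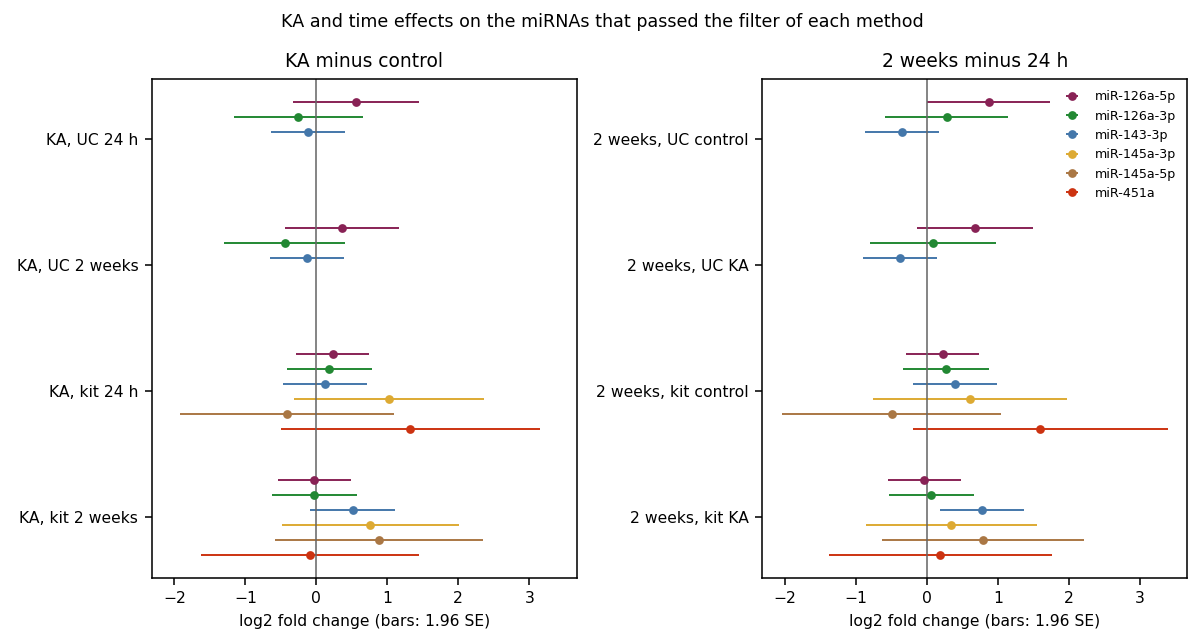
Log2 fold changes of KA against control (left) and of 2 weeks against 24 h (right) for each member that passed the filter of its method; points are edgeR estimates, bars normal 95% intervals, and the y axis names the comparison. All KA intervals include 0, and bars were widest for miR-451a and both arms of miR-145a.

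Between 24 h and 2 weeks, 0 of 18 tests passed adjustment in edgeR, DESeq2 or limma-voom, and 1 had an unadjusted p under 0.05 in each of them. This was miR-143-3p in kit libraries of KA mice, which was higher at 2 weeks by 0.78 ± 0.30 (edgeR, unadjusted p = 0.0181, adjusted p = 0.984), with each library at 2 weeks above every library at 24 h. Without kit KA 2w replicate 2 it was 0.37 (unadjusted p = 0.222). In kit controls it was 0.39 ± 0.30, and with UC it was -0.35 ± 0.27 in controls and -0.37 ± 0.27 in KA mice. miR-126a-5p was higher at 2 weeks with UC by 0.87 ± 0.44 in controls (edgeR, unadjusted p = 0.0543, adjusted p = 0.988), a value that did not pass, and differed by -0.03 ± 0.26 in kit KA libraries. The share of all miRNAs called was 0% for UC controls (17 miRNAs with an unadjusted p under 0.05), 0.952% for UC KA (4 miRNAs, and 9 under the replicate block), 0% for kit controls (19) and 0.192% for kit KA.

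Interactions were tested in 6 comparisons of the members, 21 tests in all, of which 0 passed adjustment in edgeR (lowest adjusted p = 0.453) and 1 had an unadjusted p under 0.05, the miR-143-3p change with time given above. Over all miRNAs, 0.476% were called for KA by time with UC, 0% for KA by time with the kit, 0% for KA by method at 24 h and at 2 weeks, and 0% for kit against UC by treatment and by time. For these last comparisons, 9 to 28 miRNAs of each had an unadjusted p under 0.05.

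Near copies of the members had almost no reads. miR-126b-3p had 1 kit read and miR-126b-5p none, miR-145b had 2 kit reads, and miR-451b none.

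The miRNAs most like each member were found by Spearman's rho of the log2 CPM deviations from group means over the 12 libraries of a method, among 151 other miRNAs with UC and 195 with the kit that had at least 10 reads in every library. With the kit, miR-126a-5p was most like miR-376b-3p (rho = 0.94) and miR-126a-3p most like miR-98-5p (0.92), and the other arm stood at place 20 and at place 15. miR-143-3p was most like miR-146a-5p (0.87). With UC, miR-126a-5p was most like miR-411-5p (0.86), miR-126a-3p most like miR-329-5p (0.82) and miR-143-3p most like miR-879-5p (0.94). The points share library depth and scaling, and these values are descriptions.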

How the data were processed

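For each library the authors removed adapters and mapped what remained to miRBase v21 hairpins with the Chimira web server. The deposited values are raw counts of reads per mature miRNA and counts per listed read alteration. Handling of reads that match several hairpins is not given in the sources used here. The members and lists were chosen with earlier results of these data known, and values are given for every member. In R 4.3.3, edgeR 4.0.16 fitted TMM-scaled counts (glmQLFit and glmQLFTest) with Benjamini-Hochberg adjustment over all miRNAs with CPM over 1 in at least 6 of 12 libraries of a method (420 with UC, 520 with the kit, 397 with both), without a replicate block. Standard errors were the size of the log2 fold change over the square root of F. DESeq2 1.42.0 and limma-voom (limma 3.58.1) were alternatives. Ratios, altered shares (members with at least 10 reads in every library) and low levels were tested in Python 3.11.15 by exact permutation within strata, and correlations with 100000 permutations. The scripts were first tested on simulated data. Groups were taken from the sample labels, and replicates are pools of hippocampi that the study calls biological replicates. Hairpins were placed on GRCm38 (GRCm38.p6 for RefSeq sequences).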

Additional observations from a re-analysis of the deposited data

How the results depend on the processing

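Both arms of miR-126a were called higher in the kit under every alternative run, and leaving out each library in turn gave log2 fold changes of 1.82 to 1.99 for 3p, 3.23 to 3.44 for 5p and 0.37 to 0.64 for miR-143-3p. The miR-143-3p difference was -0.024 on the scale of miR-92b-3p and miR-25-3p, 0.31 in control libraries and 0.092 in 24 h libraries, and was not called in these 3 settings. Without a filter 6 members were called in place of 3, where 307 of 1073 miRNAs were called. With miRNAs that pass by either method it was also 6, where 317 of 543 were called. In the latter, both arms of miR-145a and miR-451a passed the filter through the kit libraries alone, and their calls are no support. No member was called for KA, time or an interaction under any alternative. The signs of their small values turned under several. With the 2 reference miRNAs as scale, KA with UC at 2 weeks gave -0.35 for miR-126a-5p. KA with the kit at 24 h then gave -0.32 for miR-126a-3p, -0.26 for miR-126a-5p and -0.44 for miR-143-3p, and at 2 weeks 0.062 for miR-126a-3p, 0.013 for miR-126a-5p and 0.29 for miR-451a. The same scale gave time effects of -0.060 for miR-126a-5p in UC KA libraries, -0.19 for miR-143-3p and -0.24 for miR-126a-5p in kit controls, and 0.036 for miR-126a-5p in kit KA libraries. It moved the median of all miRNAs to -0.54 for KA with UC at 2 weeks, -0.40 for KA with the kit at 24 h, -0.54 for time in UC KA and -0.41 for time in kit controls. Scaled by library size only, KA with the kit gave -0.0064 for miR-143-3p at 24 h and 0.033 for miR-451a at 2 weeks. At 2 weeks the kit KA effect was 0.030 without a filter, 0.045 with the 6 libraries alone, 0.12 with unaltered reads and 0.041 without replaced ends for miR-126a-3p, and 0.023, 0.035 and 0.042 with the first 3 of these for miR-126a-5p. For miR-451a it was 0.056 with DESeq2 and 0.65 with limma-voom. The time effect on miR-126a-5p in kit KA libraries was 0.010 with RLE factors, 0.054 without a filter, 0.0098 with DESeq2 and 0.0071 with unaltered reads. The cause of these changes was not tested.

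Leaving out a library gave KA effects with UC at 24 h of -0.61 to 0.042 for miR-126a-3p and -0.27 to 0.022 for miR-143-3p, and at 2 weeks -0.31 to 0.19 for miR-143-3p. With the kit at 24 h the range was -0.10 to 0.32 for miR-126a-3p, -0.10 to 0.32 for miR-143-3p and -1.58 to 0.53 for miR-145a-5p. At 2 weeks it was -0.27 to 0.15 for miR-126a-3p, -0.11 to 0.063 for miR-126a-5p and -0.63 to 2.10 for miR-451a, and the time effect on miR-126a-5p in kit KA libraries ranged from -0.19 to 0.094. Leaving out a replicate number gave differences of altered shares between methods of -4.33 to -3.82 percentage points for miR-126a-5p (adjusted p = 0.00463 without replicate 1) and -2.17 to 1.61 for miR-143-3p. Between KA and control they were -9.81 to 5.30 for miR-126a-3p and -1.78 to 1.04 for miR-126a-5p, and the arm ratio differed by 0.29 to 0.60.

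Same-numbered libraries of 2 groups correlated above 0.1 in 11 of 18 pairs with UC and 12 of 18 with the kit (range -0.26 to 0.46 and -0.50 to 0.65). Among the comparisons made, all 3 pairs did so for kit control 2w with KA 2w (0.48 to 0.63), UC control 2w with KA 2w (0.13 to 0.29) and UC KA 24h with KA 2w (0.23 to 0.46), and not for the others. The replicate block changed no call of a member. It gave kit against UC values of 1.90 for miR-126a-3p, 3.30 for miR-126a-5p and 0.50 for miR-143-3p, and turned the kit KA effect on miR-451a at 2 weeks to 0.11. Settings based on unaltered reads or on reads without a replaced end, and the ratio of miR-145a to miR-143-3p without the library that stood apart, were chosen after seeing the data, as was the permutation test of low levels. Values of the first 2 are not given for miR-451a, which kept 1 and 2 kit reads. Depth limits the low members most. In a UC library 1 read was 5.89 to 11.7 CPM.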
